A study of Mus musculus with 12 samples.

Results

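The 10 genes described here encode the signalling chains of the T cell receptor (TCR) complex and the proteins that define the T lineage: the CD3 chains Cd3d, Cd3e, Cd3g and Cd247, the kinase Lck, the coreceptors Cd4, Cd8a and Cd8b1, and the transcription factors Gata3 and Tcf7. They were taken by gene symbol from the 12199 genes of the deposited table. All 10 were found and all 10 passed the filter on low counts. RNA-Seq was performed on BM cells of 4 mouse genotypes on the C57BL/6 strain, to compare heterozygous mutations found together in acute myeloid leukemia. The WT group (n = 3) carried no mutation, and its mice came from a core facility rather than from the mutant crosses. DF mice (n = 3) were Dnmt3a Flox/+ with MxCre and Flt3 ITD/+, so that they carried 1 deleted copy of Dnmt3a and 1 copy of the Flt3 internal tandem duplication. TF mice (n = 3) were Tet2+/- and Flt3 ITD/+, with no Cre named. TFD mice (n = 2) combined Tet2+/-, Dnmt3a Flox/+ with MxCre and Flt3 ITD/+. MxCre is induced by interferon, and the study's methods state that every mouse, WT included, received poly(I:C), an inducer of interferon, as a young adult and was analyzed about 2 months later. The Flt3 ITD allele was common to all 3 mutant groups, so no comparison with WT separates it from the other alleles. A TFD replicate 3 is named in the labels and was not analysed here.

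A T cell recognizes peptide through the TCR chains, which cannot signal alone. They pair with CD3 delta, epsilon, gamma and zeta chains, whose cytoplasmic motifs are phosphorylated by Lck when the coreceptor CD4 or CD8 brings the kinase to the complex. Gata3 and Tcf7 (TCF-1) commit thymic progenitors to the T lineage and are needed again in mature T cells and innate lymphoid cells. BM holds mostly developing myeloid, erythroid and B cells, and its T cells are largely recirculating mature cells. Of the members, Cd3d, Cd3e and Cd3g are the most restricted to T cells, while in mice Cd4 and Cd8a are also found on dendritic cells, plasmacytoid ones included, and Cd247 and Lck also in NK cells. A bulk measurement cannot tell fewer T cells from less RNA of these genes per cell.

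The CD3 genes lie together on chromosome 9 in the mm10 build. Cd3g (chr9:44969572-44980431, minus strand) and Cd3d (chr9:44981786-44987052, plus strand) are transcribed away from each other from starts 1355 bases apart, and the start of Cd3e (chr9:44998743-45009590, minus strand) lies 27825 bases from that of Cd3d, by RefSeq's start of Cd3e at 45009611. Their upstream sequences are shown because these neighbors are the chains most restricted to T cells. Each is the 250 bases before a RefSeq transcription start (GRCm38.p6), 5′ to 3′ on the gene's strand. Capitals mark matches, on either strand, to the core letters of 4 motifs. The letters AGATAA were searched for GATA factors. For TCF and LEF factors the letters were CTTTGA. For RUNX factors they were TGTGGT, and for ETS factors CGGAAG.
Cd3g, chr9:44980432-44980681: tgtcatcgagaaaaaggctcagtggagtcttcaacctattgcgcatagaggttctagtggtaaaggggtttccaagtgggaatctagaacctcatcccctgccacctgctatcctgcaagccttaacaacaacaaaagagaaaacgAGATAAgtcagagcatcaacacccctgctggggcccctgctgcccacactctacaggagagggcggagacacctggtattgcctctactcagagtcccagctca
Cd3d, chr9:44981536-44981785: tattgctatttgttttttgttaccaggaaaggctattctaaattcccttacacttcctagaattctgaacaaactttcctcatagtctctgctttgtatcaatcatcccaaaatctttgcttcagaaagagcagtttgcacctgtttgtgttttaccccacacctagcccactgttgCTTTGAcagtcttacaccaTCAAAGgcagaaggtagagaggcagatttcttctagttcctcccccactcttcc
Cd3e, chr9:45009612-45009861: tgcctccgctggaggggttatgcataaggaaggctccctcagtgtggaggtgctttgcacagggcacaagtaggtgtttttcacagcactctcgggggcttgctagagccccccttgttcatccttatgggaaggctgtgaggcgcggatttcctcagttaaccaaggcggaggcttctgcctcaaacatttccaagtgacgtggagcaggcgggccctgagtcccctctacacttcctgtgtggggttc
The Cd3d window held 2 matches to the TCF letters, 1 on each strand, ending 49 and 68 bases before the start. The Cd3g window held 1 match to the GATA letters, and the Cd3e window held none of the 4. Among 32851 mouse promoter windows of this length, 13.8% held the TCF letters, 9.99% the GATA letters, 14.0% the RUNX letters and 13.6% the ETS letters, so such matches are common.

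Lck and Tcf7 are shown because both were lower in all 3 mutant genotypes. The Lck window is the one before the farther of its 2 RefSeq starts, and the Tcf7 window lies before the start nearest to the end of the gene in the table.
Lck, chr4:129573642-129573891: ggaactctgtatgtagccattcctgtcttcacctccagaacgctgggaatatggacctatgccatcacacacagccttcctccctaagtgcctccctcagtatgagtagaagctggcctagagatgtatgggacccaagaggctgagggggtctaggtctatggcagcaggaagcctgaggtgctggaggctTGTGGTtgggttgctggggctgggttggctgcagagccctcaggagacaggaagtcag
Tcf7, chr11:52282596-52282845: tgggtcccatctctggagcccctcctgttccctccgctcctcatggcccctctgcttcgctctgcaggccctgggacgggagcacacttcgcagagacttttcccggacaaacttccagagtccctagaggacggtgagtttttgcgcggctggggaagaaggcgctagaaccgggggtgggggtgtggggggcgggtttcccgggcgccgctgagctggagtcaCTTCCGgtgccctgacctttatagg
The Lck window held 1 match to the RUNX letters and the Tcf7 window 1 match to the ETS letters. RefSeq windows matched 8 of the 10 members. Cd4 and Cd8b1 were not matched. A match is a description of the letters and not a measured binding site.

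The 11 libraries held 8274153 to 15900904 counted reads. WT replicate 3, TF replicate 3 and TFD replicate 2 had Xist counts of 30976 to 42152, against 18 to 538 in the others, so WT, TF and TFD each held 1 library high in Xist. TF replicate 3 stood apart from the other TF libraries in several lineages. Its B cell list summed to 125 read counts scaled to library size (CPM), against 28.9 and 29.5 in replicates 1 and 2. Its plasmacytoid dendritic cell list summed to 545 CPM, against 269 and 208. Its erythroid list summed to 1385 CPM, against 531 and 638. The main results on TF are therefore given also without this library.

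The T cell genes were low in every library. The 10 members together held 522 to 826 reads in WT and 209 to 781 in the mutants, and single members held from 2 reads (Gata3 in DF replicate 1) to 180 reads (Cd4 in TF replicate 3). On the scale of RPKM, which divides CPM by gene length in kilobases, the WT order from the top was Cd3g (6.02 ± 1.32), Lck (5.95 ± 0.22), Cd8b1 (4.06 ± 0.66), Cd3d (4.02 ± 0.37), Tcf7 (3.93 ± 0.56), Cd3e (3.55 ± 0.41), Cd4 (2.70 ± 0.20), Cd8a (2.69 ± 0.43), Cd247 (1.0 ± 0.10) and Gata3 (0.70 ± 0.03) (mean ± SD, n = 3). Cd3g and Lck were within their SD of each other, as were neighbors in the run from Cd8b1 to Cd3e, and Cd4 and Cd8a. Lck and Cd8b1, Cd3e and Cd4, Cd8a and Cd247, and Cd247 and Gata3 were each farther apart than their SD.

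Most of the 10 genes were lower in DF and TFD BM than in WT BM, and fewer passed in TF. By edgeR's quasi-likelihood test with Benjamini-Hochberg adjustment over 12175 genes, at an adjusted p below 0.05, 8 of 10 members were lower in DF, 3 in TF and 6 in TFD, and none was higher. Over all genes tested, 16.6% were called lower and 21.0% higher in DF, 15.6% and 19.0% in TF, and 11.6% and 14.7% in TFD. The median log2 fold change of the members in DF was -1.78, where that of all genes tested was 0.05. In TF the pair was -0.63 and 0.02, and in TFD -1.53 and 0.01. Lck, Cd8b1 and Tcf7 were called in all 3 genotypes, and Cd3d in none. Every DF library lay below every WT library for 9 members, every TF library for 5 and every TFD library for 10. Over all genes this held for 22.4%, 22.9% and 23.4%. In TF replicates 1 and 2, all 10 members were below every WT library, as were 29.5% of all genes. These comparisons share the 3 WT libraries and are not independent of each other.

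Without TF replicate 3, 8 members were called lower in TF than in WT, against 16.4% of all genes, and the members' median was -1.11. The same omission changed the pooled spread, and 9 members were then called lower in DF and 9 in TFD. Of all genes, 17.2% and 12.6% were then called lower, against 16.6% and 11.6% on all libraries. The count for TF therefore rests on 1 library. Without it, Cd247 (-1.14, adjusted p = 0.0156), Cd8a (-1.08, adjusted p = 0.0351), Cd3e, Cd4 and Gata3 joined the calls in TF. Lck, Cd8b1 and Tcf7 remained called, at -1.15, -1.45 and -2.03, and Cd3d (-0.77, adjusted p = 0.0935) and Cd3g did not pass. Summed over the 10 members, WT libraries held 66.9, 64.6 and 73.9 CPM, DF libraries 20.2, 20.2 and 33.0 CPM, TF libraries 32.6, 29.5 and 71.2 CPM, and TFD libraries 25.1 and 18.6 CPM. TF replicate 3 was the only mutant library within the WT range of this sum.

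**Figure D1:**
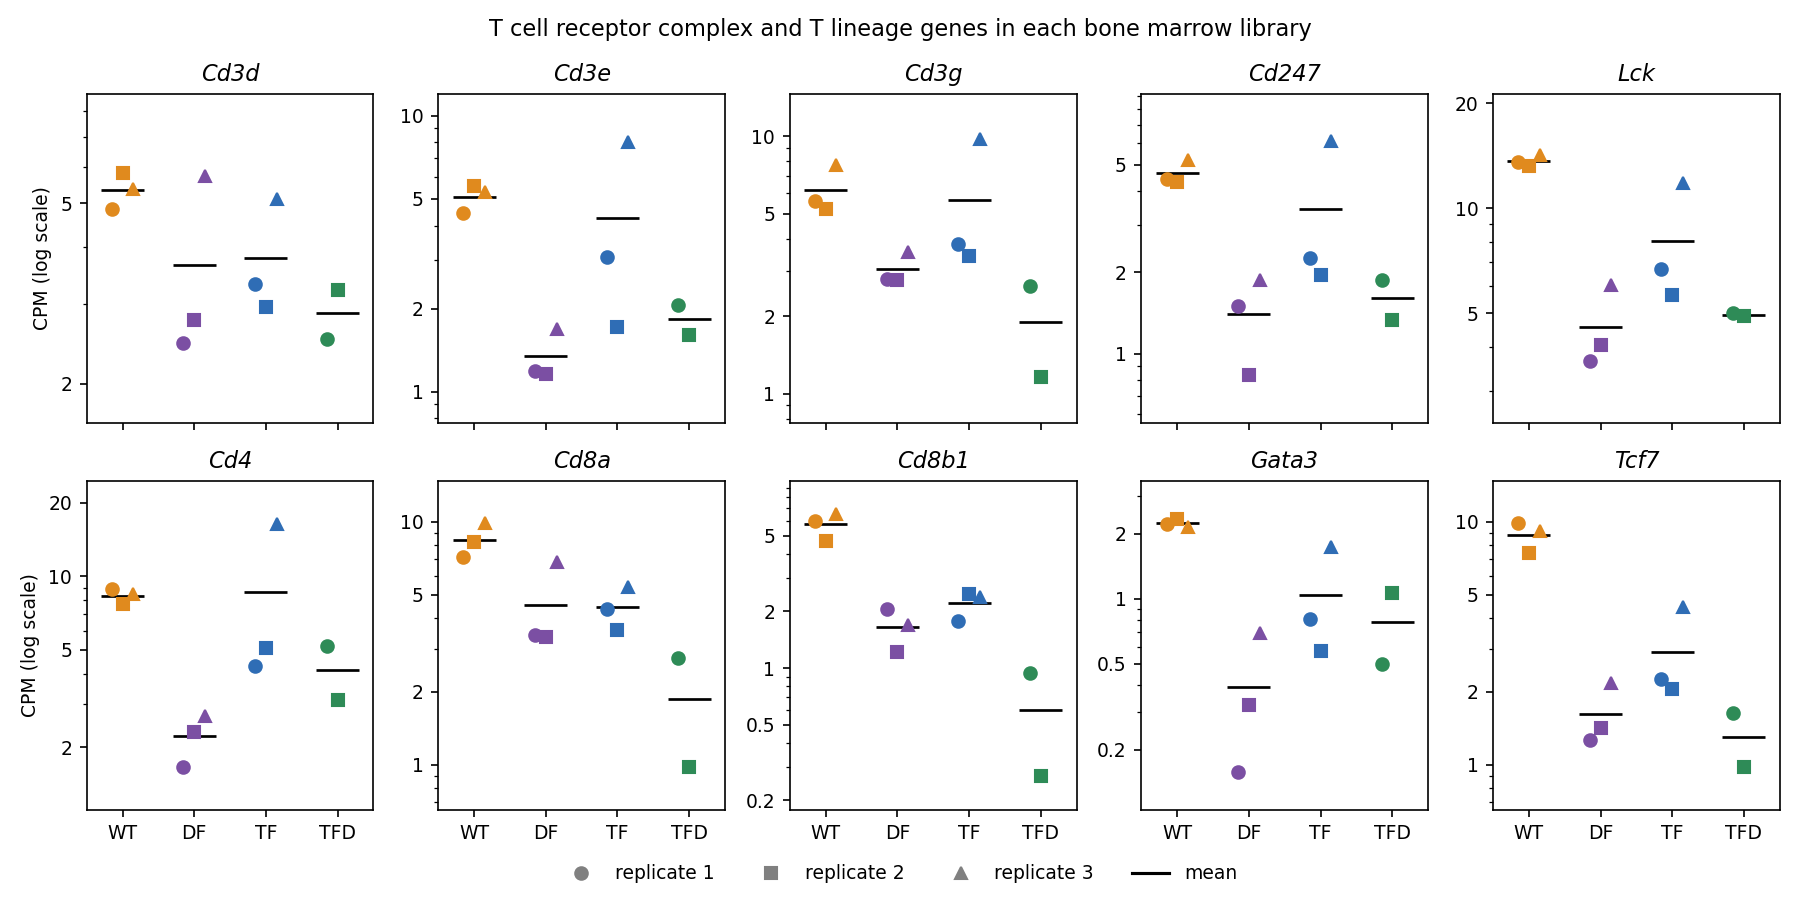
CPM (log axis) of each of the 10 genes in each library, by genotype, with the replicate number as the symbol and a line at the arithmetic mean. DF and TFD libraries lie below WT for most genes (Cd3d in DF replicate 3 is the exception), and the triangle of TF stands above the other TF libraries for every gene but Cd8b1.

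The CD3 chains carry the signal of the TCR into the cell. Cd3e, the chain that pairs with both CD3 delta and CD3 gamma, was at 4.43, 5.57 and 5.28 CPM in WT, 1.19, 1.16 and 1.68 in DF, 3.07, 1.72 and 8.03 in TF, and 2.06 and 1.60 in TFD. All DF and TFD libraries were below all WT libraries, and the TF libraries lay on both sides of them. By edgeR's test, Cd3e was 3.81-fold lower in DF (log2 fold change -1.93 ± 0.47 SE, adjusted p = 0.00664). Its change in TFD was -1.45 ± 0.51 (adjusted p = 0.0532), just outside the threshold, and in TF -0.26 ± 0.42 (adjusted p = 0.659). Without TF replicate 3, Cd3e was called lower in both TF (-1.08, adjusted p = 0.0155) and TFD (-1.45, adjusted p = 0.00371). The TFD change also passed with DESeq2, limma, the Xist term, a fit of only those groups and without TF replicate 2.

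Cd3g was at 5.58, 5.20 and 7.70 CPM in WT, 2.78, 2.77 and 3.56 in DF, 3.80, 3.44 and 9.76 in TF, and 2.63 and 1.16 in TFD. Again DF and TFD lay below WT in every library, and TF replicate 3 was the highest library of all. Cd3g was 3.16-fold lower in TFD (-1.66 ± 0.47, adjusted p = 0.0209), while its change in DF (-1.03 ± 0.40, adjusted p = 0.0574) did not pass. Over the alternatives the adjusted p in DF ran from 0.00285 to 0.160, with the call gained under DESeq2, both other scalings, a fit of only those groups and the replicate block, and without TF replicate 2, TF replicate 3 or either TFD library. The TFD call was lost without TFD replicate 2, at -1.23, or without WT replicate 3, and the change was -2.41 without TFD replicate 1. In TF its change was -0.14 ± 0.38 (adjusted p = 0.809), and -0.77 without replicate 3 (adjusted p = 0.0651).

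Cd3d was at 4.84, 5.82 and 5.37 CPM in WT, 2.46, 2.77 and 5.74 in DF, 3.31, 2.95 and 5.11 in TF, and 2.50 and 3.21 in TFD. DF replicate 3 and TF replicate 3 were inside the WT range, and the other 6 mutant libraries below it. Its log2 fold changes, -0.57 ± 0.32 in DF, -0.50 ± 0.32 in TF and -0.91 ± 0.37 in TFD, did not pass (adjusted p = 0.184, 0.251 and 0.0907). Without DF replicate 3, Cd3d was called lower in DF (-1.05, adjusted p = 0.0172).

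Cd247, the zeta chain, was at 4.43, 4.33 and 5.19 CPM in WT, 1.51, 0.837 and 1.88 in DF, 2.26, 1.96 and 6.11 in TF, and 1.88 and 1.34 in TFD. DF and TFD did not overlap WT. It was 3.38-fold lower in DF (-1.76 ± 0.44, adjusted p = 0.00748) and 2.85-fold lower in TFD (-1.51 ± 0.48, adjusted p = 0.0356), and its change in TF was -0.45 ± 0.40 (adjusted p = 0.409). The TFD call was lost when any 1 WT or TFD library was left out. Exons of Cd247 share 2918 bases with those of Pou2f1 on the other strand, and the strand setting of the counting is not given in the sources used here. Pou2f1, a widely expressed transcription factor, was at 79.9 to 101 CPM in WT and 68 to 75.1 CPM in DF (-0.32 ± 0.12, adjusted p = 0.0437). Its part in the counts of Cd247 was not tested.

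Lck, the kinase that phosphorylates the CD3 chains, was at 13.5, 13.2 and 14.2 CPM in WT, 3.65, 4.05 and 6.04 in DF, 6.71, 5.64 and 11.9 in TF, and 5.0 and 4.90 in TFD. Every mutant library was below every WT library, TF replicate 3 included. Lck was 3.01-fold lower in DF (-1.59 ± 0.27, adjusted p = 0.000620), 1.70-fold lower in TF (-0.77 ± 0.26, adjusted p = 0.0340) and 2.76-fold lower in TFD (-1.46 ± 0.30, adjusted p = 0.00359). The TF call was lost when any 1 WT library, TF replicate 1 or TF replicate 2 was left out.

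**Figure D2:**
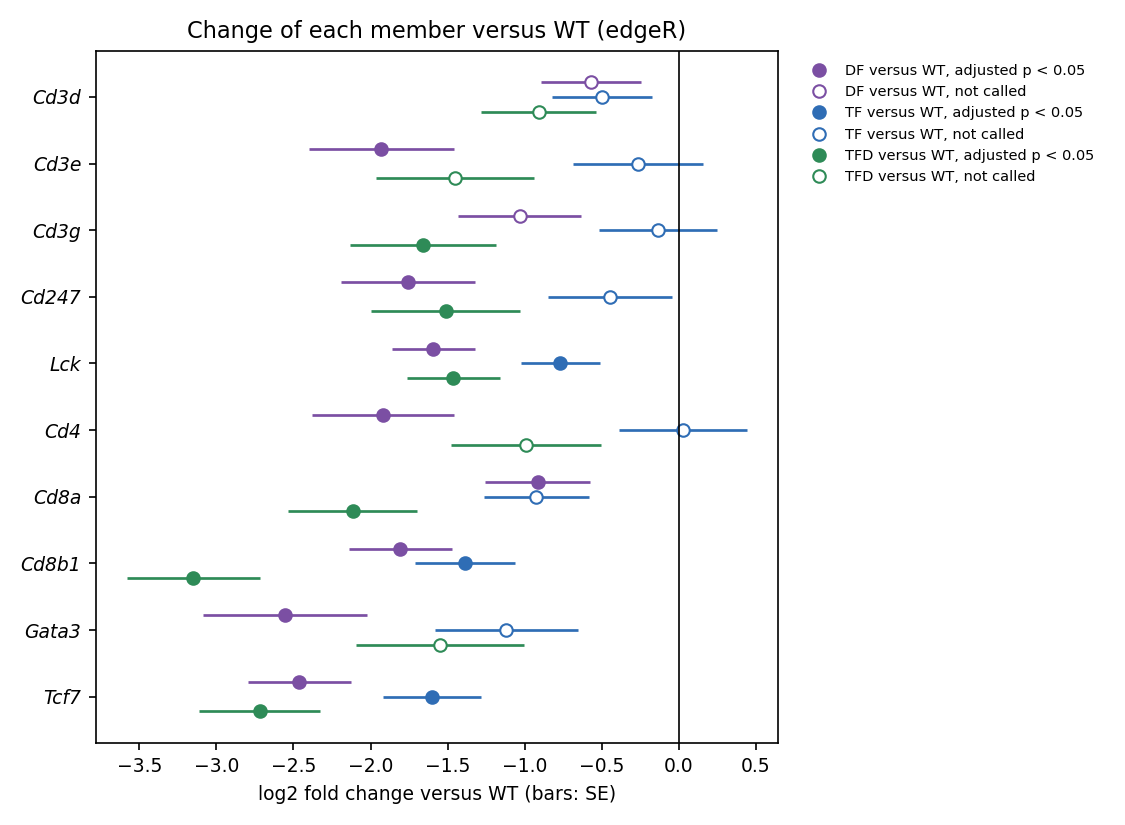
Log2 fold change of each gene versus WT (points) with its SE (bars) in DF, TF and TFD; filled points passed an adjusted p of 0.05 in edgeR's test. All points but Cd4 in TF (0.03, below 0 in some alternative settings) lie below 0, and the lowest is Cd8b1 in TFD (-3.15).

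Among the coreceptors, Cd4, the coreceptor of helper T cells, was at 8.87, 7.67 and 8.50 CPM in WT, 1.67, 2.32 and 2.67 in DF, 4.28, 5.07 and 16.4 in TF, and 5.19 and 3.12 in TFD. DF was below every other library, and TF replicate 3 above every other. Cd4 was 3.78-fold lower in DF (-1.92 ± 0.46, adjusted p = 0.00607), and its changes in TF (0.03 ± 0.41, adjusted p = 0.966) and TFD (-0.99 ± 0.49, adjusted p = 0.154) did not pass. Without TF replicate 3 it was called lower in both TF (-0.84, adjusted p = 0.0227) and TFD (-0.99, adjusted p = 0.0116).

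Cd8a, the CD8 chain that T cells share with some dendritic cells, was at 7.14, 8.29 and 9.84 CPM in WT, 3.41, 3.35 and 6.83 in DF, 4.36, 3.60 and 5.38 in TF, and 2.75 and 0.980 in TFD. No mutant library reached the WT range, TF replicate 3 included. Cd8a was 4.33-fold lower in TFD (-2.12 ± 0.42, adjusted p = 0.00285), with -3.09 when TFD replicate 1 and -1.60 when TFD replicate 2 was left out. Its changes in DF (-0.92 ± 0.34) and TF (-0.92 ± 0.34) fell on either side of the threshold, with adjusted p = 0.0498 and 0.0518. The DF call was lost when any 1 WT library, DF replicate 1, DF replicate 2 or TF replicate 1 was left out, and with a term for Xist. The TF change passed with DESeq2, both other scalings, a fit of only those groups, the replicate block, the Xist term and limma. It also passed without DF replicate 3 and without TF replicate 3, among others.

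Cd8b1, the CD8 beta chain that is largely confined to T cells, was at 5.99, 4.70 and 6.53 CPM in WT, 2.06, 1.22 and 1.68 in DF, 1.78, 2.45 and 2.37 in TF, and 0.938 and 0.267 in TFD. Here TF replicate 3 lay between the other TF libraries, and the groups of mutants were all clear of WT. Cd8b1 was 3.5-fold lower in DF (-1.81 ± 0.33, adjusted p = 0.00116), 2.62-fold lower in TF (-1.39 ± 0.32, adjusted p = 0.00572) and 8.88-fold lower in TFD (-3.15 ± 0.43, adjusted p = 0.000257). TFD replicate 2 held 3 reads, for which an exact Poisson interval at 95% is 0.619 to 8.77 reads and covers counting error only. The TFD change was still called without that library, at -2.60, and without TFD replicate 1, at -4.38.

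**Figure D3:**
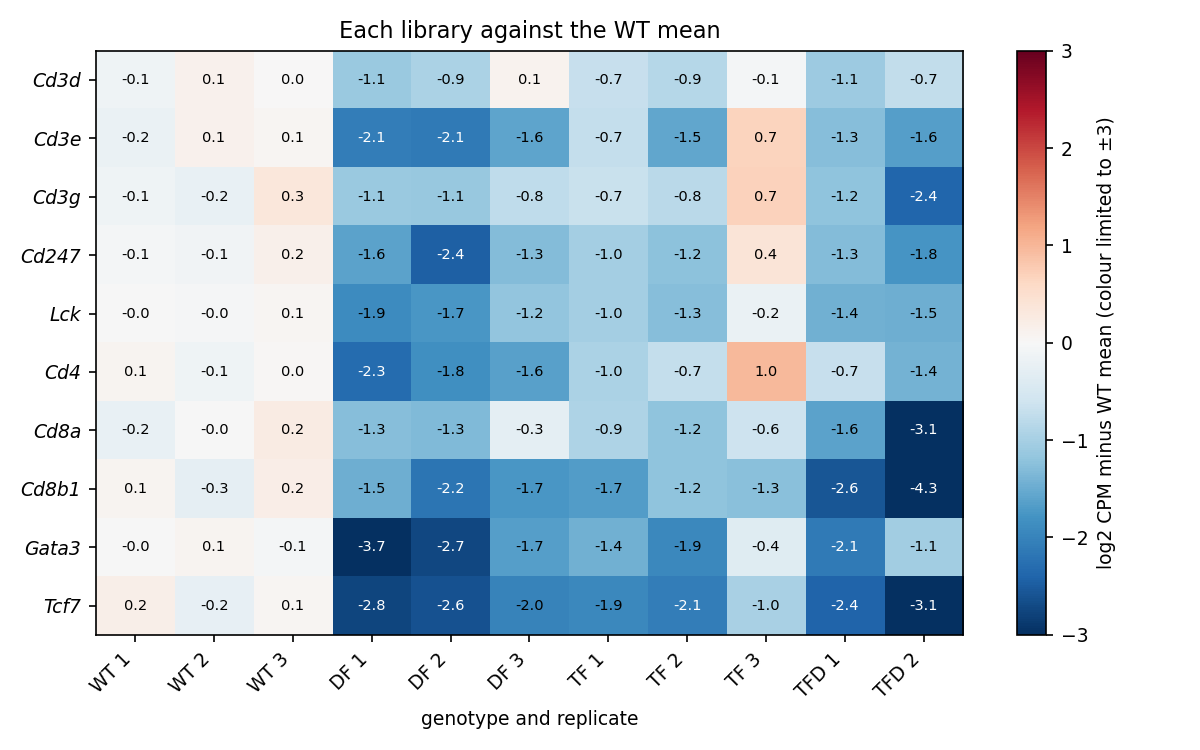
Log2 CPM of each gene in each library minus the mean of the 3 WT libraries (numbers, with colors limited to ±3). TF replicate 3 is above the WT mean for Cd3e, Cd3g, Cd247 and Cd4 and below it for the other 6 genes, and Lck, Cd8a, Cd8b1, Gata3 and Tcf7 are below every WT library in all mutant libraries.

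Of the transcription factors, Tcf7, an early target of Notch signalling in T cell progenitors, was at 9.85, 7.42 and 9.13 CPM in WT, 1.27, 1.42 and 2.18 in DF, 2.26, 2.05 and 4.47 in TF, and 1.63 and 0.980 in TFD. Every mutant library was below every WT library. Tcf7 was 5.51-fold lower in DF (-2.46 ± 0.34, adjusted p = 0.000145), 3.03-fold lower in TF (-1.60 ± 0.32, adjusted p = 0.00212) and 6.59-fold lower in TFD (-2.72 ± 0.40, adjusted p = 0.000376). All 3 calls held under every alternative run and without each library in turn.

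Gata3, which is used by T helper 2 cells and innate lymphoid cells as well as by T cell progenitors, was the lowest member in WT on both scales. It held 2 to 7 reads per DF library, at 0.159, 0.322 and 0.693 CPM, against 2.22, 2.35 and 2.15 CPM in WT. TF libraries were at 0.808, 0.573 and 1.73 CPM and TFD libraries at 0.50 and 1.07 CPM, all below WT. It was 5.87-fold lower in DF (-2.55 ± 0.53, adjusted p = 0.00267). Its changes in TF (-1.12 ± 0.46, adjusted p = 0.0794) and TFD (-1.55 ± 0.54, adjusted p = 0.0521) did not pass. Without TF replicate 3, Gata3 was called lower in both (-1.68, adjusted p = 0.0137, and -1.56, adjusted p = 0.0208). Both changes also passed with the Xist term and with limma. The TFD change passed too with library totals, in a fit of only those groups, and without DF replicate 3 or TF replicate 2.

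TF replicate 3 did not lie close to WT for every T cell gene. It was below all 3 WT libraries for 5 members (Lck, Cd8a, Cd8b1, Gata3 and Tcf7) and above all 3 for 4 (Cd3e, Cd3g, Cd247 and Cd4). Its lowest member relative to the WT mean was Cd8b1 (-1.26 on the log2 scale) and its highest Cd4 (0.98). Its T cell surface list summed to 227 CPM, against 110 and 88.4 in the other TF libraries and 226 to 266 in WT. The lists of other lineages given above moved with it, and their part in the member values was not tested.

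The mutants were also compared with each other, to see which of these genes differed between combinations of alleles. Cd4 was the only member called in DF versus TF, 3.85-fold lower in DF (-1.95 ± 0.46, adjusted p = 0.0278). Over all genes, 4.27% were called lower in DF than in TF. Cd3e (-1.67 ± 0.47, adjusted p = 0.0568) and Cd247 (-1.31 ± 0.44, adjusted p = 0.109) did not pass, and were at -0.85 and -0.63 when TF replicate 3 was left out. Without TF replicate 3 no member was called by edgeR, against 2.2% of all genes called lower, and Cd4 was at -1.08 (adjusted p = 0.0578). The Cd4 call was also lost when any 1 DF library was left out. On all libraries DESeq2 called 3 members lower, and 6.1% of all genes. Of 8 plasmacytoid dendritic cell markers, 7 were lower in DF than in TF. So were 7 of 8 erythroid and 5 of 8 conventional dendritic cell markers, and none of these 3 lists had a marker called higher. Siglech, a defining marker of plasmacytoid dendritic cells, was at 1.35, 0.0644 and 0.0990 CPM in DF and at 15.8, 11.9 and 63.2 CPM in TF. In TFD, Siglech was at 0.50 and 5.26 CPM and Cd4 at 5.19 and 3.12 CPM. The part of any of these cells in the difference of Cd4 was not tested.

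For DF versus TFD no member passed in edgeR's test, where 0.0% of all genes were called. The 2 members with the lowest p were Cd8a and Cd8b1. DESeq2 called 0 members there, and 258 of all genes. Both chains were higher in DF, Cd8a by 1.2 ± 0.42 and Cd8b1 by 1.34 ± 0.45 on the log2 scale (adjusted p = 0.243 and 0.224). These were 2.17 and 2.57 when TFD replicate 1 was left out, with Cd8b1 then called (adjusted p = 0.0497), and 0.66 and 0.77 when TFD replicate 2 was left out. A lone TFD library is assumed to vary like the other groups. For TF versus TFD no member passed either (0.0164% of all genes). The log2 fold changes of all 10 were positive, from 0.41 to 1.76 (adjusted p = 0.249 at the lowest), where the median of all genes was -0.00064. With TF replicate 3 left out, the median of the members went from 1.09 to 0.37, and Gata3 turned to -0.12. DESeq2 again called 0 members, and 126 of all genes.

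Ratios of members within a library do not depend on library size and ask whether the genes fell in proportion. For 8 pairs, WT was compared with all 8 mutant libraries by a two-sided exact permutation test. After Benjamini-Hochberg adjustment over the 8 pairs none passed. The pair with the lowest p was Tcf7 to Cd3e, whose log2 ratio was 0.41 to 1.15 in WT and -0.84 to 0.37 in the mutants. The ranges did not overlap, with a difference of -0.95 (exact permutation p = 0.0182, adjusted p = 0.145). For Cd8a to Cd8b1 the log2 ratio was 0.25 to 0.81 in WT and 0.55 to 2.01 in the mutants, a difference of 0.76 (exact permutation p = 0.0545, adjusted p = 0.218). Cd3d to Cd3e and Cd3g to Cd3e differed by 0.62 and 0.37 (exact permutation, adjusted p = 0.364 and 0.485). For both pairs the 3 DF libraries (1.04 to 1.76 and 1.07 to 1.24) lay above the 3 WT libraries (0.02 to 0.13 and -0.10 to 0.54), a difference for DF alone that was not tested. Lck to Cd3e and Cd247 to Cd3e differed by 0.01 and 0.003 between WT and mutants, with WT values from 1.24 to 1.61 and from -0.36 to 0.0 and mutant values from 0.56 to 1.83 and from -0.46 to 0.34. The ratio of Cd4 to Cd8b1 was widest among mutants, from -0.30 in DF replicate 1 to 3.44 in TFD replicate 2. The latter rests on 35 reads of Cd4 and only 3 of Cd8b1.

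**Figure D4:**
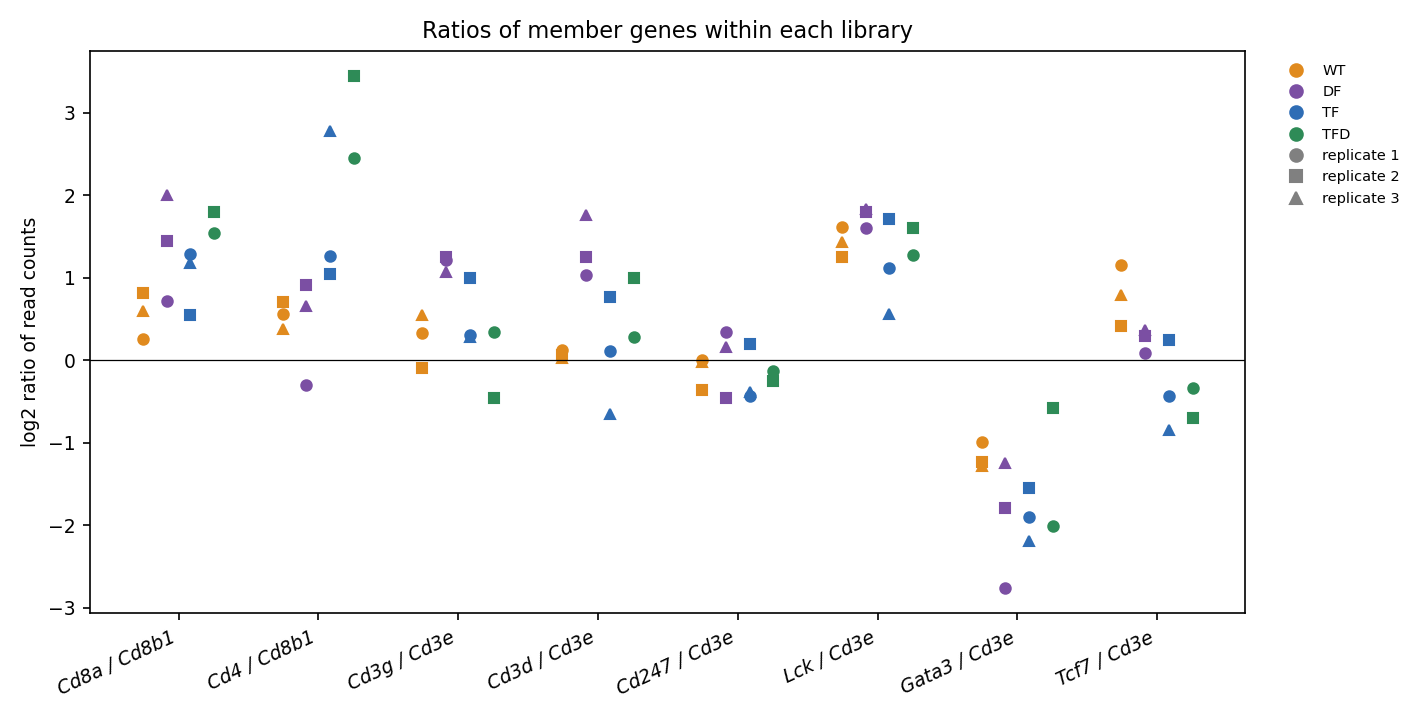
Log2 ratio of the read counts of pairs of members within each library, by genotype (color) and replicate (symbol). For Tcf7 to Cd3e the 3 WT libraries (0.41 to 1.15) lie above all mutant libraries (-0.84 to 0.37), and for the other 7 pairs the ranges overlap.

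Other genes of the T cell were counted in 3 lists. Of 19 kinases and adaptors downstream of the TCR that were tested, 11 were lower in DF, 7 in TF and 8 in TFD, and 1, 1 and 2 were higher, with median log2 fold changes of -0.76, -0.25 and -0.68. Rasgrp1, which activates Ras after TCR engagement, was at 35.4, 40.2 and 52.2 CPM in WT and 7.94, 9.40 and 8.12 CPM in DF. It was lower in all 3 mutants (-2.32 ± 0.34 in DF, -1.93 ± 0.34 in TF and -1.82 ± 0.38 in TFD). Themis, an adaptor needed for thymocyte selection, was lower in all 3 too (-2.22, -1.5 and -3.32), as was Sla2, an adaptor that dampens receptor signalling (-2.17, -1.04 and -1.94). Vav1, a guanine nucleotide exchange factor used in most blood lineages, was higher in DF (0.50 ± 0.11) and TFD (0.41 ± 0.12). The summed level of this list was 741 to 883 CPM in the mutants and 786 to 867 CPM in WT.

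In DF versus TF, 4 of these signalling genes were called, all lower in DF. Grap2, an adaptor that links to SLP-76, was at 7.30, 7.01 and 7.92 CPM in DF and at 26.1, 16.6 and 32.8 CPM in TF (-1.76 ± 0.24, adjusted p = 0.00267). The kinase Fyn (-1.02 ± 0.25, adjusted p = 0.0329) and the calcium-regulated factor Nfatc2 (-1.07 ± 0.21, adjusted p = 0.0145) were also lower. Nfatc2 was above WT in TF (1.06 ± 0.22) and in TFD (0.87 ± 0.24), while in DF its change was -0.01 ± 0.22. Leaving out TF replicate 3, 3 of the list were called lower in DF than in TF, among them Grap2 (-1.53) and Nfatc2 (-0.90), while Fyn (-0.69, adjusted p = 0.109) did not pass. Grap2, Fyn and Nfatc2 are also used outside T cells.

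Of 17 T cell surface receptors tested, 11 were lower in DF, 6 in TF and 6 in TFD, and 1, 1 and 0 were higher, with medians of -1.47, -0.02 and -1.08. Those lower in all 3 included Ccr7, which guides naive T cells and dendritic cells to lymph nodes, at 22.6 to 24.4 CPM in WT, 0.837 to 1.51 in DF, 1.23 to 6.11 in TF and 0.876 to 2.05 in TFD. They also included Il7r, the receptor for a survival cytokine of T cells and B cell progenitors (-4.86, -2.64 and -3.49), and Il2ra (-4.94, -3.25 and -3.34). Il2ra held only 7, 5 and 1 reads in the DF libraries, against 74 to 140 in WT. Cd27, a costimulatory receptor also found on progenitors, was higher in DF (0.61 ± 0.14) and TF (0.97 ± 0.14). In DF versus TF, Cd7, Ctla4, Il7r and Cd5 were lower in DF. Cd7, found on T and NK cells, was at 2.46, 3.09 and 4.36 CPM in DF and at 20.3, 11.8 and 39.9 CPM in TF. Ctla4, an inhibitory receptor, and Cd5, a marker of T cells and some B cells, differed by -2.84 ± 0.58 and -1.77 ± 0.45 (adjusted p = 0.0153 and 0.0372). DESeq2 called 8 of this list lower in DF than in TF (6.1% of all genes), and a fit of only those groups 2 (3.47%). The count was 1 without DF replicate 1 (2.28% of all genes called lower), 0 without DF replicate 2 (1.08%) and 1 without DF replicate 3 (1.67%). It was 9 without TF replicate 2 (5.78%), against 4 (4.27%) on all libraries. Leaving out TF replicate 3, the count went from 4 to 3 (2.2% of all genes), Ctla4 was at -1.69, and Cd5 (-1.03, adjusted p = 0.139) did not pass.

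Of 12 transcription factors of T cell development and subsets tested, 8 were lower in DF, 6 in TF and 8 in TFD, and 1, 0 and 0 were higher, with medians of -0.89, -0.73 and -1.11. Lef1, the close relative of Tcf7 that is also used by B cell progenitors, was at 15.5, 11.5 and 9.84 CPM in WT and at 0.397, 0.322 and 0.396 CPM in DF. It was the lowest of the list in DF (-5.03 ± 0.43), with -4.10 ± 0.39 in TF and -5.35 ± 0.52 in TFD. Id3, an inhibitor of E proteins, and Eomes, a factor of cytotoxic T and NK cells, were lower in all 3 (-2.35, -2.15 and -2.11, and -1.62, -1.22 and -1.66). Zbtb7b, which directs T cells to the CD4 lineage, was higher in DF (0.57 ± 0.15), and its changes in TF and TFD did not pass. It was at 71.6 to 101 CPM in WT and 113 to 134 CPM in DF, where Cd4 was at 7.67 to 8.87 and 1.67 to 2.67 CPM. The cells that gave the Zbtb7b reads were not tested. None of the list was called in DF versus TF by edgeR, and none was called lower by DESeq2. Once TF replicate 3 was left out, the counts called lower in TF than in WT were 8 for the signalling list, 7 for the surface list and 7 for the factors. Rasgrp1, Themis, Sla2, Ccr7, Il7r, Il2ra, Id3 and Eomes remained called lower in TF, and Lef1 then missed the filter on low counts. The 7 constant segments of the TCR chains were not analysed here.

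Markers of other cells were counted beside the members. All 10 B cell markers were lower in DF and TFD and 9 in TF, with the list at 528 to 635 CPM in WT, 16.9 to 29.5 in DF, 28.9 to 125 in TF and 23.7 to 25.1 in TFD. Of 11 NK and cytotoxic markers, 5 were lower in each genotype and 1, 2 and 0 were higher, and their sum was 89.5 to 98.3 CPM in DF, 91.2 to 127 in TF and 59.6 to 81.2 in TFD, against 95.2 to 102 in WT. Ncr1, the receptor that marks NK cells, was lower in DF (-3.03 ± 0.62) and TF (-2.29 ± 0.58), while Gzmb was higher in DF (1.28 ± 0.36). Of 4 innate lymphoid cell markers tested, 1 was lower and 1 higher in each genotype. The one that fell was the receptor Il1rl1 (-2.71, -1.37 and -1.63), which mast cells also carry, and the one that rose was Areg (1.91, 3.04 and 2.59). Of 8 monocyte markers, 7, 7 and 5 were higher. Of 8 erythroid markers, 8, 6 and 6 were lower. Of 8 plasmacytoid dendritic cell markers, 6, 2 and 4 were lower and 0, 2 and 0 higher, and of 8 conventional dendritic cell markers 1, 0 and 0 were lower and 3, 7 and 6 higher. Of 9 neutrophil markers, 0, 2 and 1 were lower and 3, 0 and 1 higher, and of 6 mast cell and basophil markers 1, 4 and 1 were lower and none higher. A change in the share of any lineage changes the share of reads left to the members, and its part in their values was not tested.

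**Figure D5:**
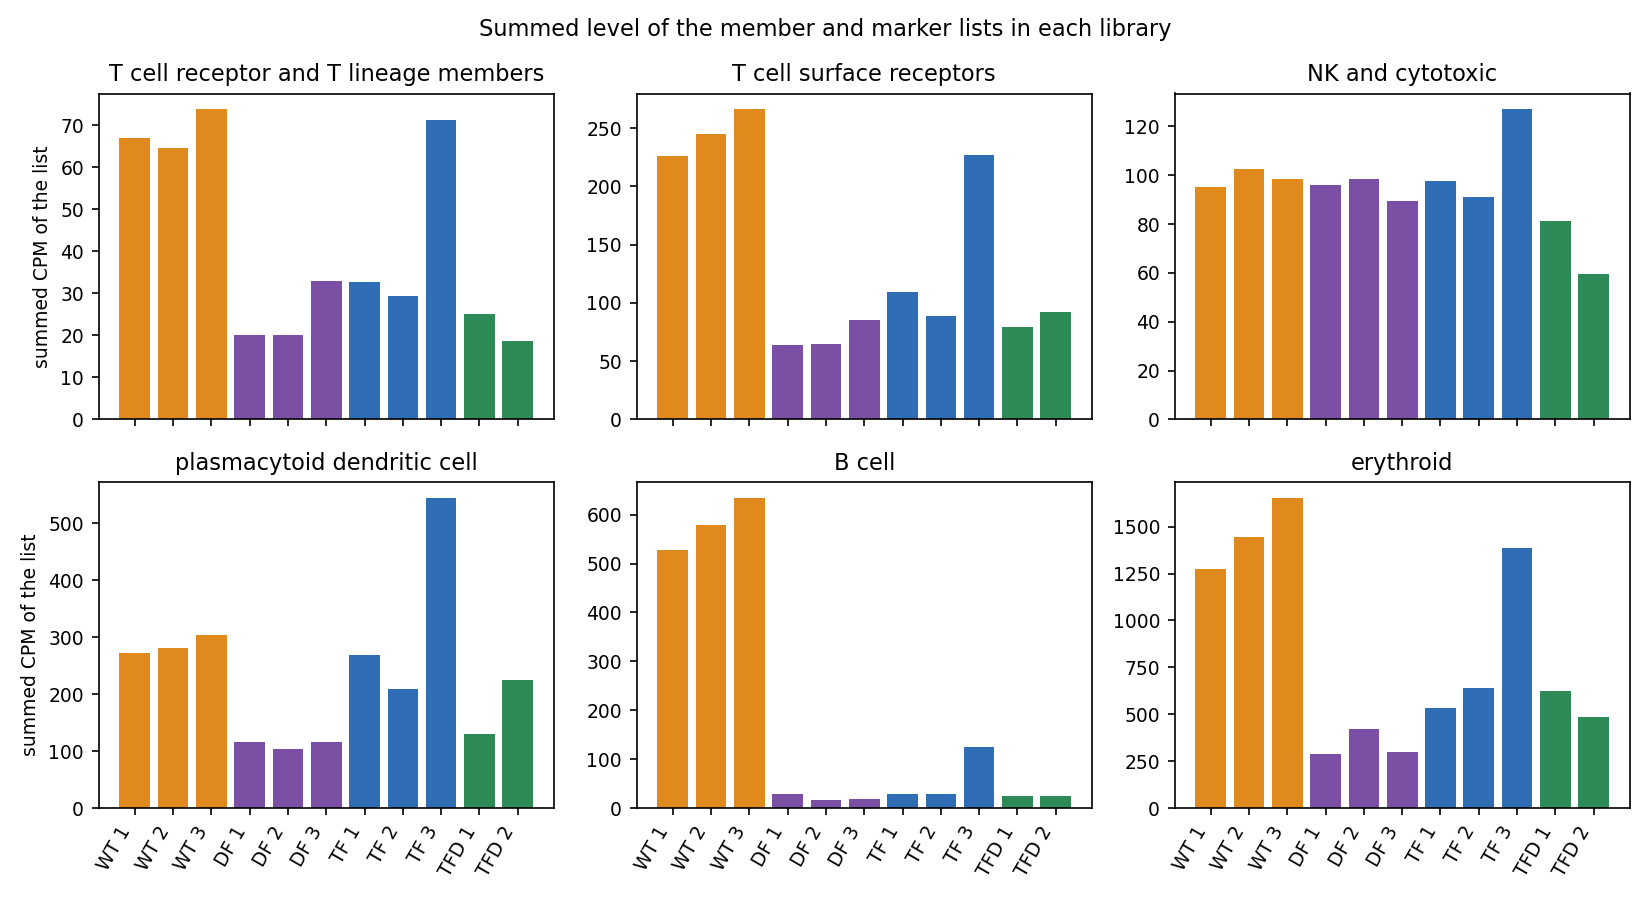
Summed CPM of the 10 members and of 5 marker lists in each library (bars from 0, colored by genotype). The members fall from 64.6 to 73.9 CPM in WT to 18.6 to 33.0 CPM in all mutant libraries except TF replicate 3 (71.2 CPM), which also has the highest plasmacytoid dendritic cell sum (545 CPM).

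The genes whose pattern was most like the mean of Cd3d, Cd3e and Cd3g were sought over all 11 libraries, as a description. Gimap4, a small GTPase of lymphocytes, had the highest Pearson r (0.98), followed by Ccl5 (0.96) and Gimap3 (0.96), and then Zkscan3, Sh2d2a, Samd4, Ddx58 and Tmem123 (0.95 to 0.94). Gimap4 was at 26.6, 32.7 and 28.7 CPM in WT, 7.07, 6.82 and 14.4 in DF, 11.8, 10.5 and 32.6 in TF, and 11.3 and 7.22 in TFD. Like the CD3 genes, it was high in WT and TF replicate 3 and raised within DF in replicate 3. After each genotype's mean was taken off, the most alike were Ehd2 (0.99), Dennd5b (0.98), Tgfbr3 (0.98), Slfn9 (0.97), Gimap4 (0.97), Kcnj10 (0.97), Egr3 (0.97) and Gimap8 (0.97). By this measure Lck stayed close to the CD3 mean (0.97) and Cd8b1 did not (0.21). Ehd2 was near the floor, at 0.0644 to 0.297 CPM in DF and at 0.162, 0.0818 and 1.64 CPM in TF. Slfn9 was higher in TF (49.2 to 69.6 CPM) than in WT (33.1 to 37.9 CPM). These correlations are over 11 libraries that share depth and cell makeup.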

How the data were processed

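BM RNA (3 WT, 3 DF, 3 TF and 2 TFD libraries) was depleted of globin transcripts and sequenced from stranded total RNA libraries. The authors aligned reads to mm10 with STAR, used featureCounts for unique reads on refGene genes, kept those above 0.5 CPM in more than 3 samples and deposited these raw counts per gene beside log2 CPM. Their versions and strand setting are not given in the sources used here. From the counts, the deposited log2 CPM values were recomputed to within 5e-09, with a prior count of 0.25, and CPM was taken with edgeR's TMM factors, which were 0.924 to 1.04. The deposited gene length gave RPKM. The same minimum of 0.5 CPM left 12175 of 12199 genes.

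All 4 groups were fitted together in edgeR 4.0.16 (quasi-likelihood test, R 4.3.3), without covariates, and p-values were adjusted over all genes tested in each of 6 comparisons. The fit was tested on simulated data. Alternatives were DESeq2 1.42.0, limma 3.58.1, other scalings, no filter, a fit of only the groups compared, a replicate block, an Xist term (10000 reads or more), and leaving out each library. The members and lists were chosen with earlier results of these data known. The genes named from each list were the 3 lowest and the 1 highest in DF versus WT and all called in DF versus TF, of which 1 is not reported here; genes given for other lineages were chosen after their values were seen. Replicates are separate libraries whose labels name no animal, so p-values may measure only the spread between libraries. Intervals cover counting error only.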

Additional observations from a re-analysis of the deposited data

Results flagged for a closer look

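Cd4 differed between mutant genotypes by a test of the difference itself. Its log2 fold change in DF versus TF was -1.95 ± 0.46 (edgeR's quasi-likelihood test, adjusted p = 0.0278). The adjusted p was 0.0578 without TF replicate 3, where the change was -1.08, and it ranged from 0.000387 to 0.107 over all alternatives. What the difference rests on was not tested.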

How the results depend on the processing

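Among the member changes versus WT, in DF versus TF and named for TFD, those that turned direction in a setting were the following. For Cd4 in TF versus WT, the log2 change of 0.03 became -0.15 with a replicate block, -0.10 with a term for Xist and -0.18 with limma, and ran from -0.84 to 0.35 when 1 library was left out. Cd3e and Cd3g in TF ran from -1.08 to 0.12 and from -0.77 to 0.12 when 1 library was left out. In DF versus TF, Cd3d, at -0.07, became 0.066 with the Xist term and ran from -0.55 to 0.19. Cd8a, at 0.007 there, became -0.010 with DESeq2, -0.086 with library totals, -0.016 with DESeq2's factors in edgeR, -0.020 with only these groups, -0.017 with a replicate block and -0.023 with limma, and ran from -0.42 to 0.19. Gata3 in TF versus TFD ran from -0.12 to 1.01. The log2 ratio of Lck to Cd3e became -0.030 with a prior count of 2 and ran from -0.082 to 0.13, and that of Cd247 to Cd3e from -0.11 to 0.067. Counts of members called moved more. For TF versus WT, 5 were called with the Xist term (17.5% of all genes called lower) and 5 with limma (16.1%), against 3 (15.6%). When 1 library was left out, the count ran from 2 (without TF replicate 1, 9.59%, among others) to 8 (without TF replicate 3, 16.4%). For TFD versus WT, 10 were called in a fit of only those groups (10.9% of all genes called lower), against 6 (11.6%), and 4 (without WT replicate 3, 9.35%, or TFD replicate 2, 7.67%) to 9 (without TF replicate 3, 12.6%) when 1 library was left out. For DF versus TF the count was 3 with DESeq2 (6.1% of all genes), 2 with library totals (5.41%), 0 with the Xist term (3.03%) and 0 with only those groups (3.47%). When 1 library was left out, the count ran from 0 (without DF replicate 2, 1.08%, among others) to 4 (without TF replicate 2, 5.78%). For DF versus TFD it was 0 to 1, the 1 being without TFD replicate 1. Same-numbered libraries had a median r of 0.03 over 15 pairs, from -0.30 to 0.25, and others -0.01 over 30. The replicate block gave 9, 4 and 6 calls versus WT in DF, TF and TFD, against 16.2%, 15.4% and 9.49% of all genes called lower. The cause of these shifts was not tested. Counts were low, with 3 reads of Cd8b1 in TFD replicate 2 and 2 of Gata3 in DF replicate 1.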
